A study of Drosophila melanogaster with 5 samples.

Results

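The transcripts of 10 chaperone genes were followed in heads of Drosophila melanogaster fed Levodopa or overexpressing histone H1. They are the small heat shock protein genes Hsp22, Hsp23, Hsp26, Hsp27, Hsp67Ba and Hsp67Bc, the Hsp90 gene Hsp83, the constitutive Hsp70 gene Hsc70-4, the Hsp40 gene DnaJ-1 and the heat shock transcription factor gene Hsf. They were taken by symbol from the 24034 features of the 29 °C table and found by identifier among the 23882 features of the 25 °C table. All 10 were present in both, and 9 of them had counts.

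Polyadenylated RNA was sequenced from 5 samples, 1 for each group. At 25 °C these were wild type flies fed Levodopa, at 4 g/L in the food for 7 days, and wild type flies without treatment. At 29 °C they were flies overexpressing histone H1 (H1OE), wild type flies given the same Levodopa food, and wild type flies labelled with the temperature alone as treatment. Levodopa is the precursor that is converted to dopamine in the body. For H1OE, an Elav driver that is sensitive to temperature was crossed at 18 °C with a strain for overexpressing H1, and the progeny spent 7 days at 29 °C. Elav drivers are active in neurons. The label of the control at 29 °C gives wild type as genotype, names no driver, and does not say at which temperature its parents were crossed or how long it was kept warm. Since heat shock genes respond to temperature, histone H1, the driver, the background and the thermal history cannot be told apart in H1OE. Age and number of flies were not stated for any sample in the sources used here.

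Chaperones bind proteins that are unfolded or partly folded. Small heat shock proteins, which share an alpha-crystallin domain, form large oligomers that hold unfolding proteins without using ATP, and Hsp70 with its Hsp40 partners then refolds them. Hsp90 binds signalling proteins such as kinases and receptors late in their folding. In heat or other protein damage, Hsf forms trimers that bind heat shock elements in the promoters of Hsp70 and small heat shock genes, among others. Hsc70-4 and Hsp83 are abundant without stress.

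Column totals were 30074894 and 30334054 counts for Levodopa and 25947583 and 28856401 for control at 25 °C, where each sample had 2 columns. At 29 °C they were 26832877 for H1OE, 25975838 for Levodopa and 24770629 for control, with 1 column each. Levels are given as CPM, counts scaled to a common library total, on library sizes scaled by TMM within each table, and the 2 tables were not compared by test. The labels name the tissue both as heads and as brain. The 6 photoreceptor genes listed as eye markers summed to 53972 to 71647 CPM per library and the 6 neuronal genes to 1522 to 2817 CPM, so eyes were included. The 23 annotated histone H1 genes had 0 counts in the H1OE, Levodopa and control libraries at 29 °C, so the counts did not check the overexpression.

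Calls differed between the tables. At 25 °C a gene was called when it changed at least 2-fold with an edgeR adjusted p under 0.05, the 2 columns of a sample serving as the spread. The labels do not say whether the columns came from separate flies, so these p-values measure how columns of 1 sample vary, and that variation may be technical. At 29 °C, with 1 library a group, there was no test and no replicate check. There a size rule was used instead: 10 counts were added to each library, and a ratio of at least 2 passed. Folds at 29 °C are ratios of scaled counts with an exact 95% interval that covers counting error only.

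The 6 small heat shock genes lie within 14184 bases of chromosome arm 3L (dm6, 9371511 to 9385694), the cluster named 67B. In map order they are Hsp67Bc (9371511 to 9372497, minus strand), Hsp22 (9372931 to 9374964, plus), Hsp26 (9376418 to 9377427, minus), Hsp67Ba (9377802 to 9379534, minus), Hsp23 (9381882 to 9382765, plus) and Hsp27 (9384063 to 9385694, plus). All but Hsp22 have 0 introns in the annotation used here (Ensembl BDGP6), and their exonic lengths run from 884 bases in Hsp23 to 1733 bases in Hsp67Ba. The other 4 genes lie elsewhere. Hsp83 (3192969 to 3197059, plus) and DnaJ-1 (5750029 to 5752189, minus) are on 3L, Hsc70-4 (15242687 to 15246614, plus) is on 3R and Hsf (18130303 to 18134634, minus) is on 2R. Hsp83, DnaJ-1 and Hsc70-4 each have at most 1 intron.

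Hsp22, which encodes a small heat shock protein of the mitochondrial matrix, had 0 counts in all 7 columns. All of its exonic bases (100%) are also exonic in CG4456, a gene on the same strand that ends at the same base. Of 332 protein-coding genes wholly shared in this way, 330 (99.4%) had no count in any column, against 982 of 12706 genes (7.73%) that share no exonic base on their strand. The deposited counts therefore do not measure Hsp22, and its 0 was not read as a level. Strand did not protect a gene from this: all 71 protein-coding genes whose exons are wholly covered by exons of the opposite strand, and by none of their own, also had 0 counts. Hsp67Ba is touched by it, because 75.9% of its exonic bases are overlapped by exons of the antisense RNA asRNA:CR43481. Its counts come with that limit, and its level was not ranked against the other genes.

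Levels between genes were compared per length, on the authors' deposited FPKM values. In every group Hsc70-4 came first, Hsp83 next and DnaJ-1 after it. In the 25 °C control they had 1027 ± 8.54, 449 ± 0.559 and 56.2 ± 1.39 FPKM (SD, n = 2 columns). Hsp23, a cytosolic small heat shock protein, followed with 29.4 ± 0.771 FPKM and Hsp26, another cytosolic one, with 21.1 ± 1.17 FPKM. Hsf had 20.2 ± 1.05 FPKM, and its columns (19.5 and 21.0) overlapped those of Hsp26 (20.3 and 21.96), so these neighbours did not differ beyond their spread. At the low end Hsp67Bc had 7.86 ± 0.559 and Hsp27, a nuclear small heat shock protein, 0.915 ± 0.0636 FPKM. At 29 °C the order of Hsp23, Hsp26 and Hsf changed with the group. In H1OE Hsf had 26.82 FPKM, below Hsp23 with 63.9 and Hsp26 with 37.0 FPKM, whereas in control it had 28.8 FPKM, above Hsp23 with 28.1 and Hsp26 with 21.2 FPKM.

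**Figure D1:**
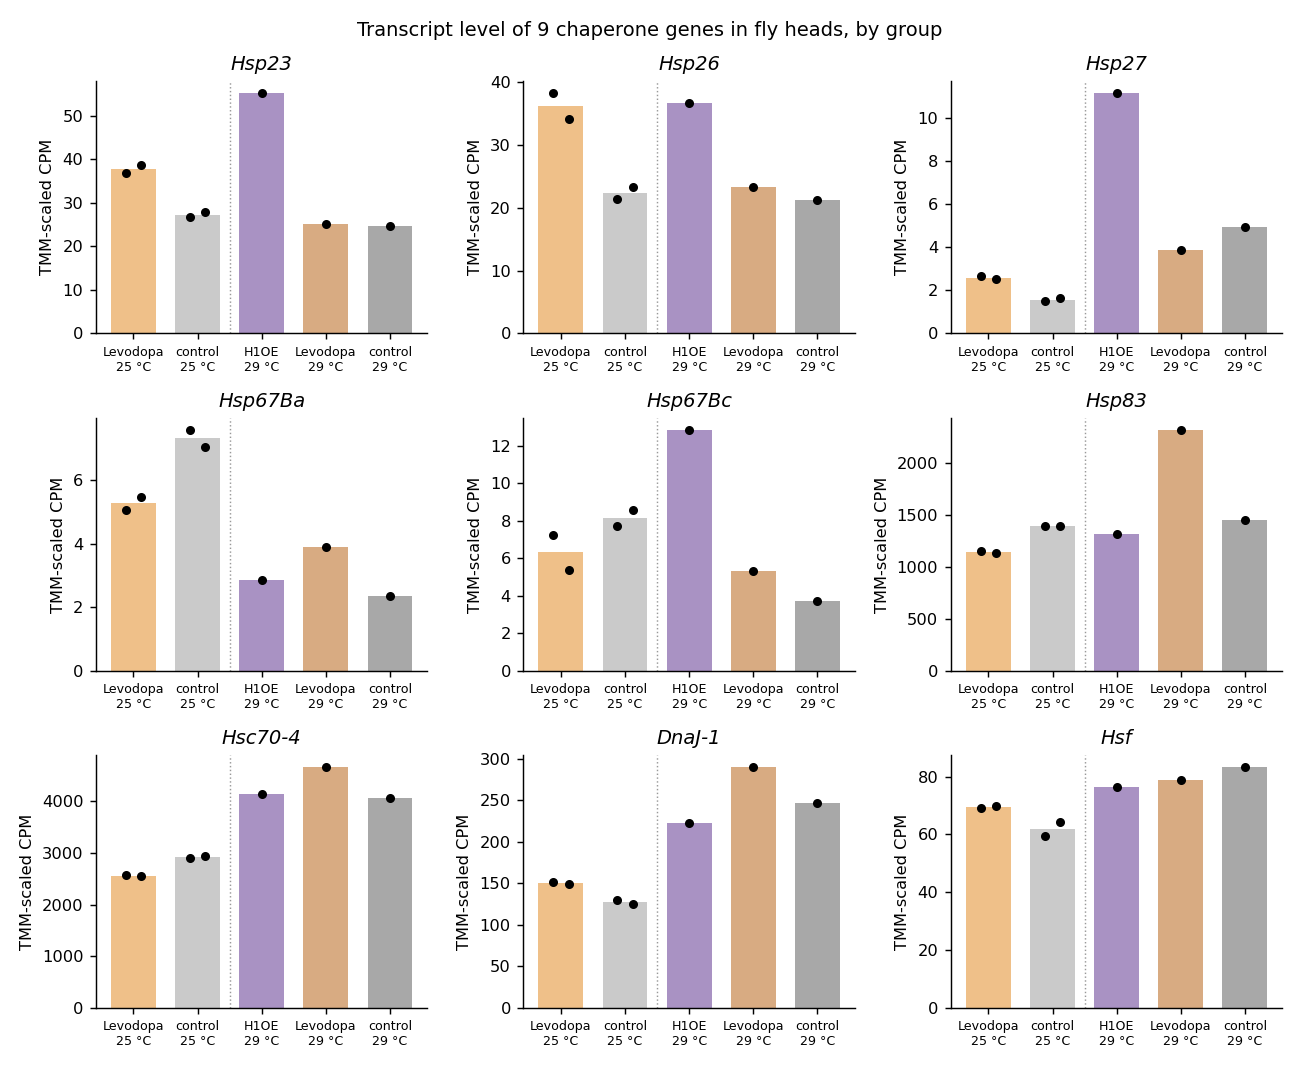
Transcript level of the 9 chaperone genes with counts, as TMM-scaled CPM on a linear axis from 0, in each group. Bars are group means and points are columns (2 per sample at 25 °C, 1 at 29 °C); the dotted line separates the 2 tables, which were scaled separately. Hsp23, Hsp27 and Hsp67Bc stand highest in H1OE among the 29 °C libraries, and Hsp83 stands highest in Levodopa among them.

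H1OE heads had over 2 times as much RNA of 3 small heat shock genes of the 67B cluster as control heads, while Hsp83, Hsc70-4, DnaJ-1 and Hsf were within 10% of control. In whole heads, a change in the cells of a type and one in the RNA per cell cannot be told apart. Of the 5 measured small heat shock genes 3, Hsp67Bc, Hsp27 and Hsp23, passed the size rule as higher in H1OE than in control and none as lower. Across all 11340 genes compared, 3.35% passed as higher, 3.77% as lower and 7.13% in either direction. The median log2 fold change of the 5 genes was 1.12, beside -0.005 for all genes compared and -0.003 for protein-coding genes without introns. It was -0.08 for protein-coding genes of 884 to 1900 bases, the range of the small heat shock members with Hsp22 included.

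Hsp67Bc had the largest difference of the 10 genes. This small heat shock protein works with the co-chaperone Starvin in selective autophagy. Its level was 12.8 CPM (351 counts) in H1OE, 5.31 CPM (139 counts) in Levodopa and 3.73 CPM (90 counts) in control, so H1OE stood apart from both others. The fold of H1OE over control was 3.44 (2.72 to 4.38), and 0.63% of the genes compared had a log2 fold change at least as high as its 1.68. The transcript of starvin itself (stv) had 186 CPM in H1OE and 174 CPM in control, a fold of 1.07.

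Hsp23 had 55.2 CPM in H1OE, 25.2 CPM in Levodopa and 24.6 CPM in control. Levodopa and control were thus within counting error of each other, and H1OE was 2.25-fold above control (2.04 to 2.47). Hsp27 had 11.2 CPM in H1OE, 3.90 CPM in Levodopa and 4.94 CPM in control, 2.27-fold higher in H1OE than in control (1.83 to 2.82). Its pass was narrow: on deposited FPKM with 1 added, the log2 difference was 0.98, short of the 2-fold rule. Hsp26 had 36.6 CPM in H1OE, 23.3 CPM in Levodopa and 21.2 CPM in control. Its fold of 1.72 over control (1.55 to 1.92) kept the same direction but did not reach 2.

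Hsp67Ba, whose product also has an alpha-crystallin domain, did not pass the rule. It had 2.85 CPM (78 counts) in H1OE, 3.90 CPM (102 counts) in Levodopa and 2.36 CPM (57 counts) in control. The interval of its fold over control, 0.846 to 1.73, included 1. The RNA on its other strand, asRNA:CR43481, had 20 counts in H1OE, 7 in Levodopa and 0 in control, which allows up to 3 counts. The limit of overlapping exons holds for this RNA as well.

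The other 4 genes showed no comparable difference between H1OE and control, and none passed the size rule (median log2 fold change -0.13). Hsp83 had 1312 CPM in H1OE and 1448 CPM in control, a fold of 0.906 (0.893 to 0.919). Hsc70-4, the constitutive cytosolic Hsp70, had 4148 CPM in H1OE and 4064 CPM in control, a fold of 1.02 (1.01 to 1.03). DnaJ-1, an Hsp40 that brings clients to Hsp70, had 223 CPM in H1OE and 246 CPM in control (fold 0.904, 0.872 to 0.937). Hsf had 76.4 CPM in H1OE and 83.2 CPM in control (fold 0.917, 0.862 to 0.976). The activity of the factor was not measured. The counting interval of H1OE over control lay above 1 for 5 of the 9 genes and below 1 for 3, against 26.6% and 28.3% of all genes (55.0% in either direction), so that an interval without 1 says little about these.

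**Figure D2:**
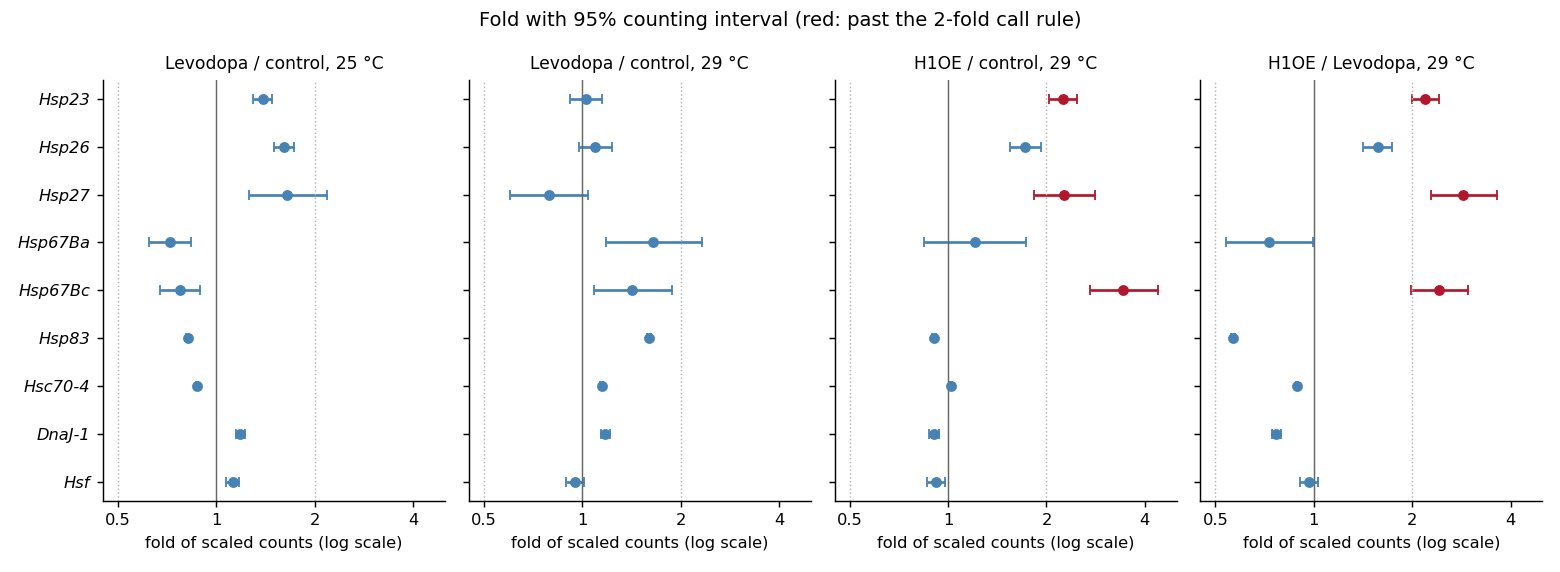
Fold of scaled counts for each of the 9 measured genes in 4 comparisons, on a log axis. Points are folds and bars their exact 95% counting intervals (at 25 °C on the summed columns, covering counting error and not the spread between columns); red marks genes past the 2-fold call. Hsp23, Hsp27 and Hsp67Bc are red in H1OE over control and in H1OE over Levodopa, and no gene is red in either Levodopa comparison.

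Fat body markers differed between H1OE and control. Of 9 compared fat body markers 7 passed the size rule as lower in H1OE, and the 13 listed summed to 3959 CPM in H1OE against 16321 CPM in control, with Fbp2 at 0 counts in H1OE. Among the 13 are the yolk protein genes Yp1, Yp2 and Yp3 and the female fat body gene fit. These sums, here and below, can thus also depend on the sex of the flies, which is not among the sample details given here. The part of sex was not tested. The 4 glial markers summed to 1745 CPM in H1OE and 2175 CPM in control, the 6 neuronal markers to 2817 CPM in H1OE and 2600 CPM in control, the 6 eye markers to 68370 CPM in H1OE and 68659 CPM in control, and the 8 muscle markers to 3188 CPM in H1OE and 3171 CPM in control. None of these 24 genes was at 0 or passed the rule. The part of these shifts in the small heat shock result was not tested.

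Small heat shock genes outside the 10 did not follow as a group. Of 5 measured, none passed in H1OE against control, with a median log2 fold change of -0.09. The gene closest to the rule was l(2)efl, an alpha-crystallin family gene outside the 67B cluster, with 93.5 CPM in H1OE and 52.1 CPM in control (fold 1.79, 1.68 to 1.92), and 49.0 CPM in Levodopa. CG4461, which lies inside the cluster between Hsp22 and Hsp26, had 26.2 CPM in H1OE and 33.3 CPM in control, a fold of 0.788 (0.711 to 0.872). The difference in H1OE was therefore not shared by every gene of the cluster.

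**Figure D3:**
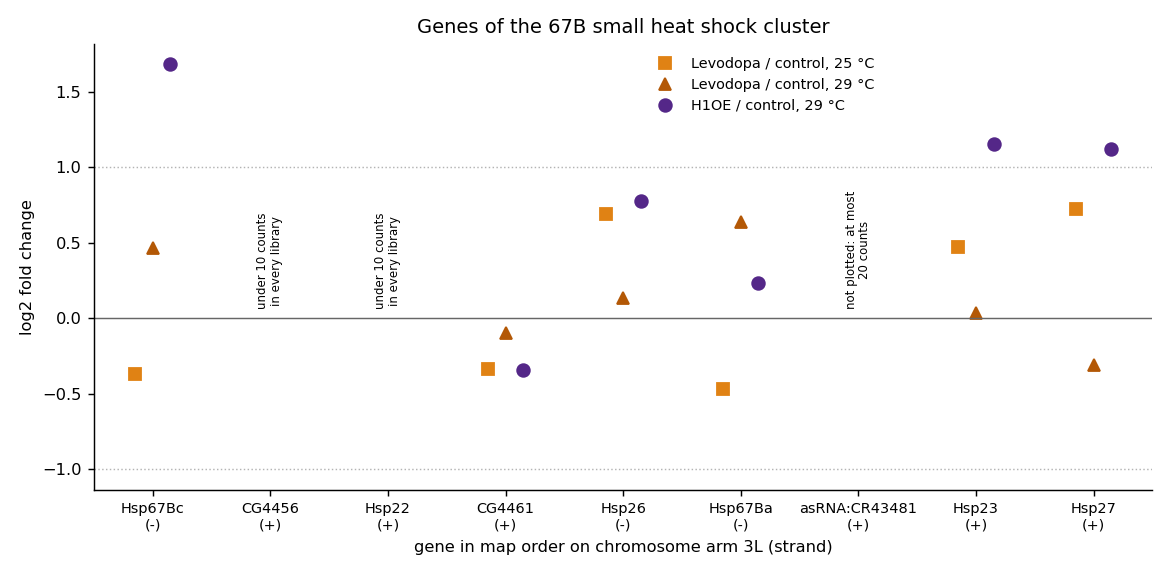
Log2 fold change of the genes of the 67B cluster in map order on 3L, with the strand in brackets. Squares are Levodopa over control at 25 °C, triangles Levodopa over control at 29 °C and circles H1OE over control at 29 °C; dotted lines mark 2-fold. Circles lie at 1.68, 1.16 and 1.12 for Hsp67Bc, Hsp23 and Hsp27 and below 0 for CG4461, while Hsp22 and CG4456 have too few counts and the antisense RNA is not plotted.

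Levodopa heads at 29 °C had more RNA of Hsp83 than control heads, by less than 2-fold, while Hsp23, Hsp26 and Hsp27 had counting intervals that included 1. No member passed the size rule, beside 2.65% of the 11145 genes compared (1.13% as higher). Hsp83 had 2316 CPM in Levodopa and 1448 CPM in control, a fold of 1.6 (1.58 to 1.62) on 60591 and 34913 counts, and 3.30% of genes had a log2 fold change as high. Hsc70-4 had 4662 CPM in Levodopa and 4064 CPM in control (fold 1.15, 1.14 to 1.16). DnaJ-1 had 290 CPM in Levodopa and 246 CPM in control (fold 1.18, 1.14 to 1.22). The abundant cytosolic chaperones thus all stood above control in Levodopa at 29 °C, by less than 2-fold.

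The small heat shock genes were mixed in Levodopa at 29 °C. Hsp67Ba and Hsp67Bc were at 1.65-fold (1.18 to 2.32) and 1.42-fold (1.08 to 1.88) of control, on 57 and 90 control counts. The intervals of Hsp23 (fold 1.02), Hsp26 (1.10), Hsp27 (0.790) and Hsf (0.949) included 1. In all, 5 of 9 intervals lay above 1 and none below, against 18.6% of all genes above 1 and 22.6% below (41.2% in either direction). Fat body markers moved here too, 6 of 11 compared passing as lower and 1 as higher. Of all 11145 genes compared, 169 passed as lower and 126 as higher. The listed fat body markers summed to 11317 CPM in Levodopa and 16321 CPM in control. Their part was not tested.

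Set against each other at 29 °C without the control, H1OE and Levodopa differed in both classes. Hsp23, Hsp27 and Hsp67Bc passed the size rule as higher in H1OE, where 3.18% of 11364 genes did (6.32% in either direction). Their folds of H1OE over Levodopa were 2.19 (2.00 to 2.41), 2.87 (2.28 to 3.62) and 2.41 (1.98 to 2.96). Hsp83 was at 0.566 of its Levodopa level (0.559 to 0.574) and DnaJ-1 at 0.768 (0.743 to 0.795). The log2 fold changes of Hsp83, DnaJ-1, Hsc70-4 and Hsf were all below 0 in this comparison, whereas 4 of the 5 small heat shock genes were above 0. Of all 11364 genes, 5714 were above 0 and 5650 below. Of 80 genes compared in the other chaperone lists, 24 were above 0 and 56 below, so values below 0 were not particular to these 4. Of 11 compared fat body markers 5 passed as lower in H1OE than in Levodopa, with sums of 3959 CPM in H1OE and 11317 CPM in Levodopa. Of all 11364 genes, 357 passed as lower and 361 as higher. The 4 glial markers were all below 0, with sums of 1745 CPM in H1OE and 2286 CPM in Levodopa. The 7 ovary markers summed to 3.51 CPM in H1OE and 2.33 CPM in Levodopa, with 1 called higher and 1 lower of 2 compared. The 5 testis markers summed to 2.67 CPM in H1OE and 0.994 CPM in Levodopa, with 1 of 1 compared called higher. The part of these differences was not tested. The comparisons at 29 °C share libraries, so they are not independent of each other.

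At 25 °C Levodopa heads had more RNA of Hsp26, Hsp27 and Hsp23 than control heads, each by less than 2-fold, and less of Hsp83, Hsc70-4, Hsp67Ba and Hsp67Bc. None of the 9 members was called, beside 5.15% of the 11799 genes tested with edgeR (2.01% as higher, on 237 genes, against 137 genes without the second Levodopa column and 153 without the first). For all 9 the columns of Levodopa and control did not overlap, which also held for 76.8% of all genes. The edgeR adjusted p was under 0.05 with no fold asked for 5 members as higher and 4 as lower, against 26.5% and 32.0% of all genes (58.5% in all), so neither measure sets the members apart.

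Hsp26 had 38.2 and 34.1 CPM in the Levodopa columns and 21.5 and 23.3 CPM in the control columns, a log2 fold change of 0.69 (SE 0.08, edgeR adjusted p = 8.54e-19). Hsp23 had 37.0 and 38.7 CPM in Levodopa and 26.7 and 27.8 CPM in control (0.47, SE 0.07). These had the most counts of the small heat shock members, with 1172 to 2399 summed counts a group. Hsp27 had 2.65 and 2.52 CPM in Levodopa and 1.49 and 1.64 CPM in control (0.72, SE 0.28, edgeR adjusted p = 0.0207), on 164 and 82 summed counts. Its adjusted p was 0.0521 to 0.137 with any 1 column left out and 0.0831 with DESeq2.

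Hsp67Ba had 5.08 and 5.49 CPM in Levodopa and 7.58 and 7.07 CPM in control at 25 °C (-0.47, SE 0.16). Hsp67Bc had 7.26 and 5.37 CPM in Levodopa and 7.71 and 8.56 CPM in control (-0.37, SE 0.15, edgeR adjusted p = 0.0213). Both genes were thus on the other side of control from Hsp23, Hsp26 and Hsp27 of the same cluster. The difference of Hsp67Bc depended on single columns. Without the second Levodopa column its log2 fold change was -0.17 (adjusted p = 0.473), without the first control column the adjusted p was 0.181 and without the second 0.352. For Hsp67Ba the adjusted p was 0.0716 without the first Levodopa column and 0.0669 without the first control column. The adjusted p was also over 0.05 for both genes with DESeq2 (0.0659 for Hsp67Ba and 0.173 for Hsp67Bc), with total-count scaling (0.057 for Hsp67Ba and 0.169 for Hsp67Bc) and with the trend over gene length removed (0.219 for Hsp67Ba and 0.861 for Hsp67Bc). For Hsp67Bc it was 0.12 with no filter beyond 1 count.

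Hsp83, Hsc70-4, DnaJ-1 and Hsf differed by at most 0.29 on the log2 scale at 25 °C, with columns that lay close together. Hsp83 had 1141 ± 10.2 CPM in Levodopa and 1395 ± 2.64 CPM in control (SD, n = 2 columns; log2 fold change -0.29, SE 0.02). Hsc70-4 had 2560 ± 15.3 CPM in Levodopa and 2927 ± 33.5 CPM in control (-0.19, SE 0.01). DnaJ-1 was at 0.24 (SE 0.04) and Hsf at 0.17 (SE 0.05), with 69.1 and 69.8 CPM in Levodopa and 59.4 and 64.2 CPM in control for Hsf, whose adjusted p was 0.0937 without the first control column. Scaling by total counts in place of TMM shifted the median gene at 25 °C by 0.139 on the log2 scale. It kept the direction of all 9 members but put Hsp83 at -0.15 and Hsc70-4 at -0.055.

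Gene length moved with the fold change at 25 °C, and the small heat shock genes are short. Across 9891 genes with at least 100 summed counts, Spearman's rho of exonic length and log2 fold change was 0.556 (a description, genes not being independent). The shortest quartile of genes had a median log2 fold change of -0.46. Protein-coding genes without introns had a median of -0.33. Hsp23, Hsp26 and Hsp27 were on the opposite side of this trend, and with it removed they stood at 0.89, 1.09 and 0.98, which called Hsp26. Hsp67Bc then stood at 0.04 in place of -0.37, and Hsp67Ba at -0.23. At 29 °C the same rho was 0.237 for H1OE and 0.320 for Levodopa, and removing the trend changed no member's call.

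The summed levels of cell type markers differed at 25 °C as well. Neuronal markers summed to 2233 and 2223 CPM in the Levodopa columns against 1538 and 1522 CPM in the control columns, and no neuronal, eye, glial or muscle marker was called. Muscle markers summed to 2166 and 2154 CPM in Levodopa and 1706 and 1710 CPM in control, eye markers to 54129 and 53972 CPM in Levodopa and 71647 and 71386 CPM in control, and the 13 fat body markers to 3262 and 3261 CPM in Levodopa and 5110 and 5182 CPM in control. The 4 glial markers summed to 1584 and 1567 CPM in Levodopa and 1714 and 1687 CPM in control. Among 9 compared fat body markers 1 was called higher and 2 lower, with Fbp2 at 0 in all 25 °C columns and Lsp1alpha at 0 in those of control. Of all 11799 genes, 237 were called higher and 371 lower. The highest fat body levels were those of genes that went opposite ways. Obp99b had 332 CPM in Levodopa and 2350 CPM in control, and apolpp 2847 CPM in Levodopa and 2674 CPM in control. Of the 9 compared, 3 were above 0 and 6 below. Of 6 eye markers 5 were below 0 and norpA was above, at 0.53, while trp and ninaC stood at -0.02 and -0.01. The mitochondrial genome took 19.2 and 19.98% of counts in Levodopa and 12.98 and 13.24% in control. The part of these shifts in the chaperone values was not tested.

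Of other chaperones and related genes, 86 in 10 lists were matched, and the inducible Hsp70 genes were the list with the most calls. The 86 include the non-coding RNA lncRNA:Hsromega. Levodopa had 3 of 6 measured inducible Hsp70 genes called higher at 25 °C, with a median log2 fold change of 0.93. At 29 °C 3 of 7 passed as higher in Levodopa (median 0.985) and 2 of 7 in H1OE (median 0.85), each against control. Of all genes, 2.01% were called higher in Levodopa at 25 °C. At 29 °C 1.13% passed as higher in Levodopa and 3.35% in H1OE, each against control. Beside the list medians, those of all genes against control were -0.005 for H1OE, and for Levodopa -0.012 at 29 °C and -0.004 at 25 °C. Every measured inducible Hsp70 gene was above 0 in these comparisons. The Hsp70 copies among them can share reads, so their calls are not independent of each other, and the shares of all genes are no test of the list.

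Single copies of Hsp70 are nearly identical, so reads cannot be assigned between them with certainty. Hsp70Ba was at 2.46 CPM in Levodopa and 0.924 CPM in control at 25 °C (log2 fold change 1.40, edgeR adjusted p = 7.31e-05). Hsp70Bbb was at 20.8 CPM in Levodopa and 4.35 CPM in control at 29 °C, and at 8.15 CPM in H1OE, where it passed as lower than in Levodopa. Hsp70Ab was at 18.0 CPM in H1OE and 5.85 CPM in the 29 °C control. The remaining copies called against control were Hsp70Ba in H1OE, Hsp70Bb and Hsp70Bc in 29 °C Levodopa heads, and Hsp70Aa and Hsp70Bb in 25 °C Levodopa heads. The heat-inducible non-coding RNA lncRNA:Hsromega was not called. Its fold over the 29 °C control was 1.13 in H1OE and 1.12 in Levodopa, and Levodopa was at 1.16 of control at 25 °C.

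Small heat shock genes outside the members and constitutive Hsp70 genes other than Hsc70-4 gave 1 call. At 25 °C the 5 measured small heat shock genes were all below 0 (median -0.34) and none was called. Among protein-coding genes in the length range of the small heat shock members, 2658 of 3489 were below 0 there (median -0.37). Values below 0 were thus not particular to these 5. CG7409 was the lowest of the 5, with 151 CPM in Levodopa and 271 CPM in control (log2 fold change -0.84). At 29 °C CG7409 had 56.1 CPM in Levodopa and 64.3 CPM in control. Hsc70-2 passed as lower in H1OE, with 1.42 CPM against 3.94 CPM in control. Hsc70-1 had 26.9 CPM in Levodopa and 41.0 CPM in control at 25 °C (-0.61). Hsc70Cb, an Hsp110 that exchanges nucleotide on Hsp70, had 356 CPM in Levodopa and 278 CPM in control at 29 °C (fold 1.28, 1.24 to 1.32).

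The partners of Hsp70 and Hsp90 gave few calls too. Of 20 measured Hsp40 genes 1 was called in H1OE and, among Levodopa heads, 1 at 29 °C and none at 25 °C. Both calls were CG7387, with 0.840 CPM in H1OE, 1.03 CPM in Levodopa and 0.166 CPM (4 counts) in control. The largest Hsp40 difference on at least 50 counts at 25 °C was that of jdp, with 306 CPM in Levodopa and 207 CPM in control (log2 fold change 0.56). At 29 °C it was that of CG30156, with 2.85 CPM in H1OE, 2.33 CPM in Levodopa and 1.45 CPM in control. H1OE and Levodopa differed most in shv, with 21.4 CPM in H1OE and 34.1 CPM in Levodopa.

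None of 12 genes in the Hsp90 list and none of 5 Hsp70 cofactors was called in any of the 4 comparisons. Besides partners of Hsp90, the Hsp90 list holds Gp93 and Trap1, which are themselves Hsp90 genes. Stip1, which links Hsp70 to Hsp90, had 173 CPM in Levodopa and 140 CPM in control at 29 °C (fold 1.23, 1.18 to 1.29). At 25 °C the largest differences in these lists were those of Sgt, with 78.8 CPM in Levodopa and 115.2 CPM in control, and Roe1, a nucleotide exchange factor of mitochondria, with 27.4 CPM in Levodopa and 40.7 CPM in control. In H1OE they were those of Gp93, the Hsp90 of the endoplasmic reticulum, with 233 CPM against 286 CPM in control, and Sil1, with 14.0 CPM against 18.4 CPM in control. CG7945, with 111 CPM in Levodopa and 102 CPM in control at 29 °C, had the largest difference of an Hsp70 cofactor there.

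Of 14 genes of the cytosolic chaperonin and prefoldin, none was called in any comparison. All 14 were below 0 in Levodopa at 25 °C (median -0.38), mgr being lowest with 31.3 CPM in Levodopa and 50.5 CPM in control. Among all genes compared, 5924 of 11799 were below 0 there. Among protein-coding genes in the length range of the small heat shock members, 2658 of 3489 were (median -0.37). The part of gene length in the values of the 14 was not tested. At 29 °C 11 of 14 were above 0 in Levodopa (median 0.11), led by CCT1 at a fold of 1.30 (1.22 to 1.38). Among all genes in that comparison, 5331 of 11145 were above 0. In H1OE 5 of 14 were above 0 (median -0.06), and Pfdn1 was at 1.53 (1.24 to 1.90).

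Of 7 genes listed for protein folding in the endoplasmic reticulum none was called. Besides chaperones, this list holds the transcription factor gene Xbp1 and the oxidase gene Ero1L. The disulfide isomerase ERp60 had 269 CPM in H1OE against 484 CPM in the 29 °C control (fold 0.555, 0.539 to 0.571), and 230 CPM in Levodopa against 349 CPM in control at 25 °C. CaBP1 had 88.4 CPM in Levodopa and 100.03 CPM in control at 29 °C. The list median was -0.46 in H1OE and -0.31 in Levodopa at 25 °C. Mitochondrial chaperonins gave calls on few counts only, namely CG9920 in Levodopa at 29 °C (1.87 CPM against 0.622 CPM in control) and Hsp60D in H1OE (0.731 CPM against 0.124 CPM in control, fold 5.87, 1.74 to 30.9), which also passed against Levodopa. The abundant Hsp60A had 747 CPM in Levodopa and 709 CPM in control at 29 °C, and CG11267 had 50.8 CPM in Levodopa and 73.9 CPM in control at 25 °C.

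**Figure D4:**
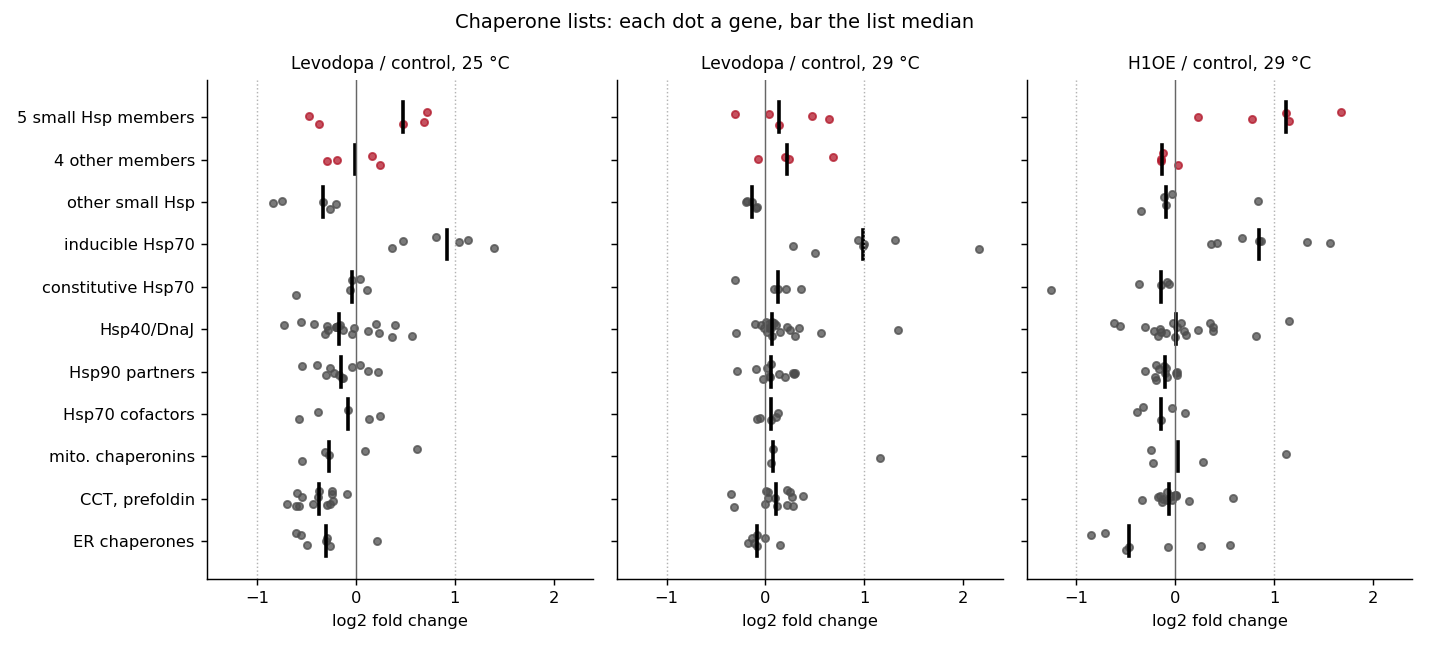
Log2 fold change of chaperone and related genes by list in 3 comparisons. Each dot is a gene, black bars are list medians, red dots are members and dotted lines mark 2-fold. The 5 small heat shock members have their highest median, 1.12, in H1OE, and the inducible Hsp70 genes lie above 0 in all 3 panels.

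The genes most like each member were sought by Euclidean distance over 3 log2 fold changes (H1OE over control, and Levodopa over control at either temperature) among 6776 genes with at least 200 counts in every library. The nearest to Hsp23 was kel at a distance of 0.07, to Hsp26 Myc at 0.10 and to Hsp27 CG8468 at 0.17, with InR next at 0.20. The nearest to Hsp83 were CG10513 at 0.29 and CHORD at 0.34, and to Hsp67Bc CG18858 at 0.40. That of Hsp67Ba was daw at 0.13. Hsc70-4 had Rpn8 at 0.03, DnaJ-1 had MICU3 at 0.04 and Hsf had CG32795 at 0.025. Hsp83 and Hsp67Bc thus had no gene as close to them as the other members had. The 2 values of the 29 °C table share a control, so the likeness is a description.

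The 2 controls were kept at different temperatures, in separately scaled tables that were not compared by test, so their levels are set side by side only. Hsc70-4 had 4064 CPM in the 29 °C control and 2927 ± 33.5 CPM in the 25 °C control (SD, n = 2 columns). DnaJ-1 had 246 CPM in the 29 °C control and 127 ± 2.75 CPM in the 25 °C control. Hsp27 had 4.94 CPM in the 29 °C control and 1.57 ± 0.104 CPM in the 25 °C control. Hsp67Bc had 3.73 CPM in the 29 °C control and 8.13 ± 0.606 CPM in the 25 °C control. Hsp67Ba had 2.36 CPM in the 29 °C control and 7.33 ± 0.365 CPM in the 25 °C control. Hsf had 83.2 CPM in the 29 °C control and 61.8 ± 3.41 CPM in the 25 °C control. Closer together were Hsp23, with 24.6 CPM at 29 °C and 27.3 ± 0.800 CPM at 25 °C, and Hsp26, with 21.2 and 22.4 ± 1.31 CPM. Hsp83 had 1448 CPM in the 29 °C control and 1395 ± 2.64 CPM in the 25 °C control.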

How the data were processed

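Each feature's reads are deposited as whole-number counts, and the authors also gave FPKM, which divides by length and library size; the 25 °C samples' own files hold the same values as the joint table. The submitters' processing notes name HISAT2 2.2.1 and the build dm6. How reads were counted, with or without strand and on which annotation, is not given in the sources used here. In the 29 °C table, 2 value columns belong to no labelled sample and were not used.

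The 25 °C counts were fitted over all genes with at least 10 counts in 1 library with edgeR 4.0.16 (quasi-likelihood F test, TMM, Benjamini-Hochberg adjustment), and with DESeq2 1.42.0 as an alternative. SE are the log2 fold change divided by the root of the F statistic. The common biological coefficient of variation between columns was 2.87%. At 29 °C the size rule and exact binomial intervals were used. A count of 0 allows up to 3 counts, 0.0989 to 0.121 CPM. Reads carry no molecular identifiers and may repeat a molecule, so the counting intervals and these limits cover counting error only. Both procedures were run on counts simulated with this 2.87% spread between columns. That spread may be technical, so these runs do not show how either procedure copes with variation between flies. Exons came from the Ensembl BDGP6 annotation, whose coordinates equal the files' for all 10 members.

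The members and lists were chosen with earlier results of these data known. Of each further list the text names the gene with the largest difference among those with at least 50 counts, and every called gene; stv, CG4461, Hsp22's neighbour CG4456 and the antisense RNA were added after their values were seen. Of 89 listed symbols 86 were matched. Promoter sequences were not analysed here.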

Additional observations from a re-analysis of the deposited data

Results flagged for a closer look

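For 4 genes the Levodopa and control libraries differed in opposite directions at 25 °C and at 29 °C, each time beyond the counting interval; the difference between the temperatures was not tested. Hsp83 had a log2 fold change of -0.29 at 25 °C and 0.68 at 29 °C, and Hsc70-4 one of -0.19 at 25 °C and 0.20 at 29 °C. Hsp67Ba had -0.47 at 25 °C and 0.64 at 29 °C, and Hsp67Bc -0.37 at 25 °C and 0.47 at 29 °C. No gene past 2-fold is among them, and for Hsp67Bc the 25 °C value was 0.04 with the length trend removed. With DESeq2 the adjusted p at 25 °C was 0.0659 for Hsp67Ba and 0.173 for Hsp67Bc. The tables were scaled separately, and 41.2% of all genes had a counting interval that excluded 1 at 29 °C. At 25 °C 58.5% of all genes had an edgeR adjusted p under 0.05. The share of all genes that reversed in this way was not counted. Of 14 listed genes of the cytosolic chaperonin and prefoldin, all were below 0 at 25 °C, and 11 were above 0 and 3 below at 29 °C. Among all genes compared, 5924 of 11799 were below 0 at 25 °C, and 5331 of 11145 were above 0 at 29 °C. Among protein-coding genes in the length range of the small heat shock members, 2658 of 3489 were below 0 at 25 °C.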

How the results depend on the processing

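Over 288 alternative values for 36 pairs of member and comparison, 285 kept their direction and their side of the call. The exceptions were Hsp67Bc in Levodopa at 25 °C, at 0.038 with the length trend removed, Hsp26 in the same comparison, at 1.09 and called, and Hsp27 in H1OE against control, at 0.98 and no longer past the rule on deposited FPKM. The number of members called at 25 °C was 1 with the length trend removed and 0 otherwise; the cause was not tested. In H1OE against control 3 members were called, and 2 on FPKM. Members called stayed at 0 in Levodopa and at 3 in H1OE against Levodopa at 29 °C under every alternative run.

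All genes called moved more. With 3 added counts in place of 10 they numbered 704 in Levodopa at 29 °C, 1290 in H1OE against control and 1223 in H1OE against Levodopa, in place of 295, 808 and 718. With a filter of 50 counts, which tests fewer genes, they numbered 82, 400 and 367, and on FPKM 154, 422 and 389. At 25 °C they numbered 608, and 489 to 559 with 1 column left out. The split at 25 °C was 237 higher and 371 lower, 355 and 208 with total-count scaling, 314 and 177 with the length trend removed, 113 and 317 with a filter of 50 counts, and 157 and 307 with DESeq2. Without the first Levodopa column it was 153 and 373 and without the second 137 and 352, so the count called higher rests on both columns. In Levodopa at 29 °C it was 126 higher and 169 lower, 163 and 127 with the length trend removed, and 26 and 56 with a filter of 50 counts. No paired analysis was possible because each group has 1 labelled sample and no replicate numbers. Depth limits Hsp67Ba, Hsp67Bc and Hsp27, with 57 to 119 counts in the 29 °C control.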

Other observations

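The antisense RNA of the 67B cluster, asRNA:CR43481, had few counts in every library. Its exons overlap those of Hsp67Ba, so its counts come with the same limit as those of Hsp67Ba. It had 20 and 6 counts in the Levodopa columns and 1 and 4 in the control columns at 25 °C, and 20 counts in H1OE, 7 in Levodopa and 0 in control at 29 °C. One of the near-identical Hsp70 copies, Hsp70Bbb, had at most 3 summed counts in a group at 25 °C but 223 in H1OE and 544 in Levodopa at 29 °C, whereas Hsp70Ba had 156 summed counts in Levodopa at 25 °C and 99 in H1OE at 29 °C. Counts of single copies are thus not comparable across the 2 tables.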
